A study of Caenorhabditis elegans with 6 samples.

Results

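The genes described here are the nuclear genes of Caenorhabditis elegans that do not code for protein, measured in RIS neurons and in whole first-stage (L1) larvae. They were chosen from the authors' deposited table by their listed biotype, any but protein coding, and by a chromosome other than the mitochondrial one. The rule used no expression value, and it found 183 of the 12072 genes in the table. They comprise 131 pseudogenes, 25 genes of the class ncRNA, 17 lincRNA genes, 4 antisense genes, 4 rRNA genes and 2 snoRNA genes. RIS is an interneuron that releases GABA and neuropeptides and brings on sleep. The labels list 3 RIS libraries from a strain carrying RIS::mKate, a red fluorescent protein driven by the flp-11 promoter, and 3 libraries of N2, the wild-type laboratory strain, taken from all cells of the larvae and frozen over liquid nitrogen. Both groups were L1 larvae synchronized with hypochlorite and left to hatch overnight in M9 buffer. RIS cells came from dissociated larvae by fluorescence-activated sorting into Trizol. The sorting and freezing steps go with the groups, so their part cannot be told apart from that of the cell type. Whole larvae also contain RIS itself.

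Pseudogenes are copies of genes that have lost an intact coding frame, and some are still transcribed. A lincRNA is a long RNA transcribed from a locus between coding genes, and an antisense RNA is transcribed across another gene from the opposite strand. Ribosomal RNAs form the core of the ribosome, snoRNAs guide chemical modification of other RNAs, and ncRNA in this annotation is a residual class for transcripts with no assigned kind.

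The only values analysed here are those of the authors' deposited table of RIS against whole L1, so a level, depth or spread per library is not given for any gene. A log2 fold change is positive where RIS is higher, a mean level is in CPM, reads scaled to the library total, over both groups, and a gene is called where the authors' quasi-likelihood test gave a Benjamini-Hochberg adjusted p below 0.05 over all genes. The approximate 95% intervals were rebuilt from the fold change and its F value. Nothing in the labels tells whether libraries of a group are separate cultures, and the p-values then cover only the spread among these libraries, which may be technical. Genes with no RIS reads had 1 denominator degree of freedom fewer than the others, the loss that edgeR's rule gives for 2 libraries without reads (3 would lose 2), so the authors' fit may hold fewer RIS libraries than the 3 labelled. All 6 measured markers of RIS were called higher, with a median log2 fold change of 7.80. Of the marker genes of other cells, 3 of 4 for body wall muscle (the other, unc-54, had 0.98 and adjusted p = 0.0913 per the authors' deposited table) and 4 of 4 each for pharynx, intestine, hypodermis and ciliated neurons were called lower. None of 4 germline markers and none of 4 markers of AVK, a neuron that the sorting notes name in place of RIS, passed the authors' edgeR-format test. Uncalled markers with an unadjusted p below 0.05 were unc-54, 1 germline gene, glh-1 (−1.58 per the authors' deposited table), and 1 AVK gene, twk-47 (−2.42 there). In a bulk comparison, fewer cells that make an RNA and less RNA per cell cannot be told apart.

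Among the 183 non-coding genes, 20 rose and 53 fell in RIS, and 110 were not called. The background over all genes of the table is 9.84% called higher and 26.4% called lower, and the non-coding genes stood near it, at 10.9% and 29%. Their median log2 fold change was −1.0, against −0.78 for all genes. Most were scarce: 77.6% had a mean level below the median of the table, 11.9 CPM. Below that level 8 of 142 rose and 46 fell, where the background is 4.49% higher and 29% lower. At or above it 12 of 41 rose (29.3%) and 7 fell (17.1%), beside a background of 15.2% and 23.7%. Of the 53 falls, 36 belong to genes with few or no reads in RIS, whose fold change depends on an unstated setting of the fit, so only their level and adjusted p are given. Over all genes, 938 of 3183 falls and 946 of 12072 genes were of this kind, against 36 of the 183 non-coding genes. With such genes set aside, the median log2 fold change was −0.18 for the non-coding genes and −0.55 for all genes. Of the 147 non-coding genes left, 13.6% were called higher and 11.6% lower, against 10.7% and 20.2% of all genes left. That filter uses the fold change itself and took out almost only falls, all 36 of the non-coding genes and 938 of the 946 genes. It removed a larger share of the non-coding genes than of all genes. These medians and shares are therefore not a like-for-like comparison.

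Counts varied by class, though the difference between classes was not tested. Of 131 pseudogenes 11 rose (8.40%) and 48 fell (36.6%), 32 of the falls at few RIS reads, and the median log2 fold change was −1.34. Of 25 ncRNA genes 7 rose (28%) and 3 fell (12%), with a median of 0.25. Without the 3 ncRNA genes that overlap coding exons that median was −0.50. Of 17 lincRNA genes 2 rose and 2 fell, with a median of −0.57. No antisense, rRNA or snoRNA gene was called by the authors' edgeR-format test, and none of these 10 had an unadjusted p below 0.05. The median fold change of all genes lies below 0, so the calls were also made relative to it. The background is then 16.6% higher and 20.3% lower, and 31 non-coding genes were higher and 49 lower, with 12 ncRNA genes higher and 2 lower.

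**Figure D1:**
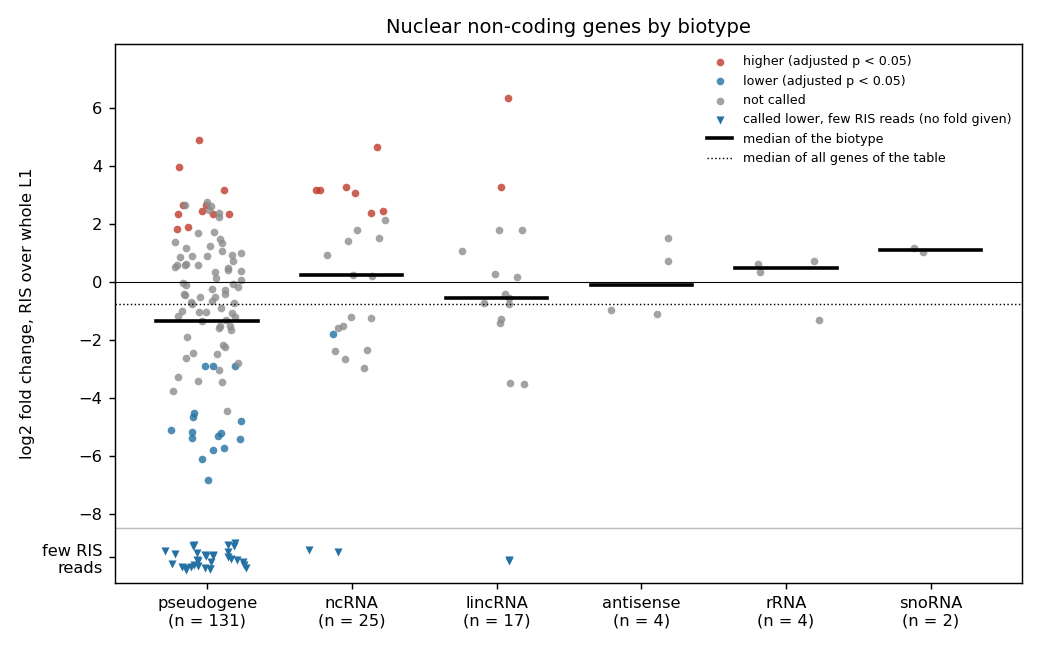
Log2 fold change (RIS over whole L1) of each nuclear non-coding gene, by biotype. Points are genes, bars are medians, the dotted line is the median of all genes (−0.78), and triangles in the lower band are the 36 genes called lower at few RIS reads, which are placed there without a scale. Most of the triangles are pseudogenes, and red points make up a larger share of the ncRNA class (7 of 25) than of the pseudogenes (11 of 131).

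Ribosomal RNA took up nearly all of the non-coding signal. The mean levels of the 183 genes sum to 78000 CPM, or 7.80% of all, and 86.6% of that sum is rRNA. The 4 rRNA genes lie side by side in the ribosomal DNA array at the end of chromosome I. In the authors' deposited table rrn-1.1 and rrn-1.2, copies of the small-subunit rRNA gene, stood at 25979 and 26598 CPM, and rrn-3.1, the large-subunit gene, at 14989 CPM. Per kilobase of exon the same table's levels come to 14811 CPM for rrn-1.1, 15164 CPM for rrn-1.2 and 4272 CPM for rrn-3.1. The short rRNA gene rrn-2.1, which lies between them, was listed at only 4.45 CPM, 29.1 CPM per kilobase.

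None of the rRNA genes differed between the groups beyond the spread of the libraries, and the intervals were wide. For rrn-3.1 the authors' deposited table listed −1.33 on the log2 scale (95% bounds −4.13 and 1.47, adjusted p = 0.429). The small-subunit copies had 0.62 (−1.56 to 2.80, adjusted p = 0.646) for rrn-1.1 and 0.73 (−1.45 to 2.90, adjusted p = 0.584) for rrn-1.2 per the authors' deposited table. For rrn-2.1 it gave 0.35 (−1.45 to 2.14, adjusted p = 0.759). The pair rrn-1.1 and rrn-1.2 are near-identical copies whose reads cannot be assigned with certainty, so they do not count as independent measurements. An unnamed pseudogene of the same array, WBGene00004677 (I 15060299 to 15061150), had 790 CPM and a log2 fold change of −3.42 per the authors' deposited table, with an interval from −8.69 to 1.85 (adjusted p = 0.277). How much rRNA was removed or primed in each library is not given in the sources used here.

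Only 2 snoRNA genes are in the table, both scarce. F29G9.19, on chromosome V, had a log2 fold change of 1.01 (95% bounds −0.81 and 2.84, adjusted p = 0.352) per the authors' deposited table. All 256 bases of it lie within exons of fos-1, a bZIP transcription factor gene on the same strand, which was listed at 0.99. F52G3.6, on chromosome X, had 1.16 (−2.74 to 5.07, adjusted p = 0.628) per the authors' deposited table. The 4 antisense genes were listed at 1.33 to 3.08 CPM. Their log2 fold changes per the authors' deposited table were 1.51 for anr-20 (adjusted p = 0.222), 0.73 for anr-36 (adjusted p = 0.505), −0.98 for anr-37 (adjusted p = 0.633) and −1.1 for anr-25 (adjusted p = 0.632). For anr-20 the interval ran from −0.55 to 3.57 and for anr-25 from −4.82 to 2.62, so differences of several-fold lie within them. In the Ensembl annotation, anr-36 and anr-37 share 63.5% and 80.9% of their exonic bases with coding genes on the same strand. On the opposite strand anr-20 shares 14.6% with ppfr-1, which was listed at 1.28, and anr-25 shares none with it. Reads of the overlapping genes may be shared.

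Several abundant genes of the ncRNA class rose. Y53F4B.45 (II 15042805 to 15044011, minus strand) was the most abundant, at 3345 CPM per the authors' deposited table, and rose 9.67-fold (log2 fold change 3.27, 95% bounds 2.35 and 4.19, adjusted p = 0.00343). It lies in the body of asc-1, which runs on the other strand and encodes a transcriptional coactivator subunit. Their exons do not overlap, and asc-1 itself had 0.11 (adjusted p = 0.920) per the authors' deposited table. C36C9.10 (X 1681752 to 1681886), a gene of 135 exonic bases, rose the most of the class, by 4.66 (25.2-fold, 95% bounds 3.04 and 6.27, adjusted p = 0.00497) at 125 CPM per the authors' deposited table.

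Another 5 ncRNA genes rose. C30E1.9 on chromosome X had 588 CPM and a log2 fold change of 3.08 (95% bounds 1.21 and 4.95, adjusted p = 0.0218) per the authors' deposited table. The table's coordinates for it end at X 16931619, well short of its end in the Ensembl annotation of WBcel235. The snoRNA gene F52G3.6 starts at X 16943323, outside the table's span but inside the longer one. Reads could be shared between them if they were counted over the longer span. W06H8.5 had 124 CPM and rose by 3.15 (95% bounds 1.93 and 4.38, adjusted p = 0.00609) per the authors' deposited table. The smaller ones were F46A8.13 (3.16, 9.61 CPM, adjusted p = 0.0168), Y41C4A.29 (2.45, 6.43 CPM, adjusted p = 0.0250) and R166.6 (2.37, 28.1 CPM, adjusted p = 0.0316) per the authors' deposited table. W06H8.5 and R166.6 lie wholly within exons of coding genes, which are treated with the other overlaps further on.

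Falls were fewer in this class. T05E11.9 (IV 11106418 to 11107579), at 607 CPM per the authors' deposited table, fell by 1.81 on the log2 scale (95% bounds −2.81 and −0.82, adjusted p = 0.0152). Relative to the median of all genes its fold change was −1.03 and the call ended (adjusted p = 0.0978). The other called falls were WBGene00185076 (2.38 CPM, adjusted p = 0.00735) and T09F5.12 (1.26 CPM, adjusted p = 0.00830) per the authors' deposited table, both at few RIS reads. Among the abundant ncRNA genes not called, W05H9.3 had 547 CPM and −2.37 (95% bounds −4.67 and −0.08, adjusted p = 0.0988) per the authors' deposited table. The long RNA tts-1, known to be abundant in dauer larvae and in long-lived daf-2 mutants, had 195 CPM and −1.61 (95% bounds −2.96 and −0.25, adjusted p = 0.0671) there. Its namesake tts-2 had 0.91 at 17.6 CPM (adjusted p = 0.223) per the authors' deposited table. The remaining ncRNA genes not called ran from −2.96 (ZK384.7) to 2.12 (lfor-1, adjusted p = 0.0634) per the authors' deposited table, and F32A5.9 lay just outside the threshold (−2.34, adjusted p = 0.0503).

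**Figure D2:**
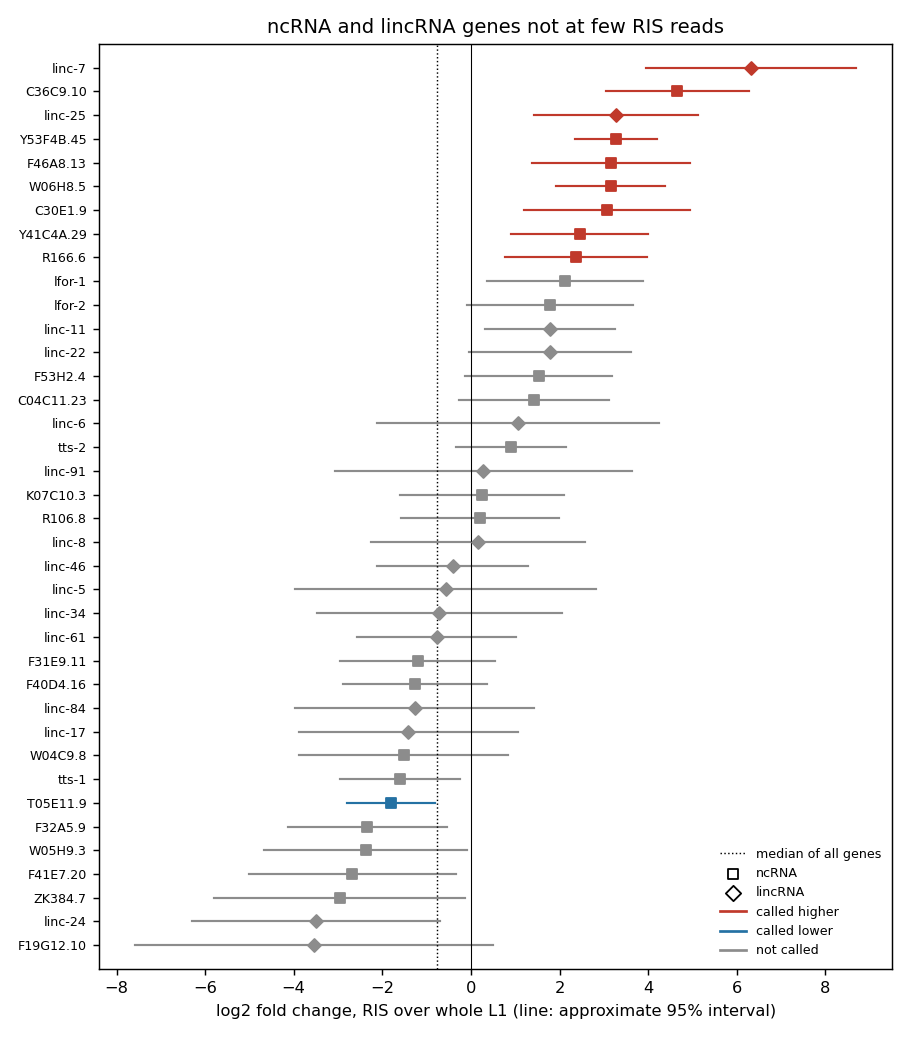
Log2 fold change (RIS over whole L1) of the ncRNA and lincRNA genes that are not at few RIS reads, with approximate 95% intervals as lines. Squares are ncRNA and diamonds lincRNA genes, colour marks the call, and the dotted line is the median of all genes. The 9 called rises sit at the top, from 2.37 for R166.6 to 6.33 for linc-7, and T05E11.9 is the 1 called fall shown.

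Of the lincRNA genes, linc-7 stood apart by its level. Located at X 16002599 to 16003728, it had 370 CPM per the authors' deposited table and rose 80.2-fold (log2 fold change 6.33, 95% bounds 3.95 and 8.70, adjusted p = 0.00563). All other lincRNA genes had 27.6 CPM or less, and per kilobase of exon linc-7 reached 327 CPM against a class median of 4.88 CPM. It lies within the body of C09G1.4, a gene on the opposite strand whose exons it does not overlap and which also rose, by 3.29 (adjusted p = 0.00572) at 23.1 CPM per the authors' deposited table. The other called rise was linc-25 on chromosome V, with 3.60 CPM and a log2 fold change of 3.27 (95% bounds 1.41 and 5.13, adjusted p = 0.0170) per the authors' deposited table. Its neighbour Y17D7C.3, a pseudogene 1587 bases away, rose by 1.83 (adjusted p = 0.0363) per the authors' deposited table.

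The 2 lincRNA genes that fell, linc-83 (0.982 CPM, adjusted p = 0.00783) and linc-96 (1.22 CPM, adjusted p = 0.00714) per the authors' deposited table, were both at few RIS reads, and linc-83 had none. The 13 lincRNA genes not called had values from −3.53 (F19G12.10) to 1.78 (linc-11). Near the threshold were linc-24 with −3.50 (adjusted p = 0.0567) and linc-11 with 1.78 (adjusted p = 0.0618) per the authors' deposited table. For linc-22, the second most abundant, it gave 1.78 (95% bounds −0.04 and 3.60, adjusted p = 0.115) at 27.6 CPM. The others, linc-5, linc-6, linc-8, linc-17, linc-34, linc-46, linc-61, linc-84 and linc-91, were listed between −1.41 and 1.06 with adjusted p of 0.339 or more per the authors' deposited table. Of these, linc-5 (−0.57) shares its strand and most of its span with the ncRNA gene C04C11.23, which had 1.42 (adjusted p = 0.169) per the authors' deposited table, so reads of the pair cannot be told apart.

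**Figure D3:**
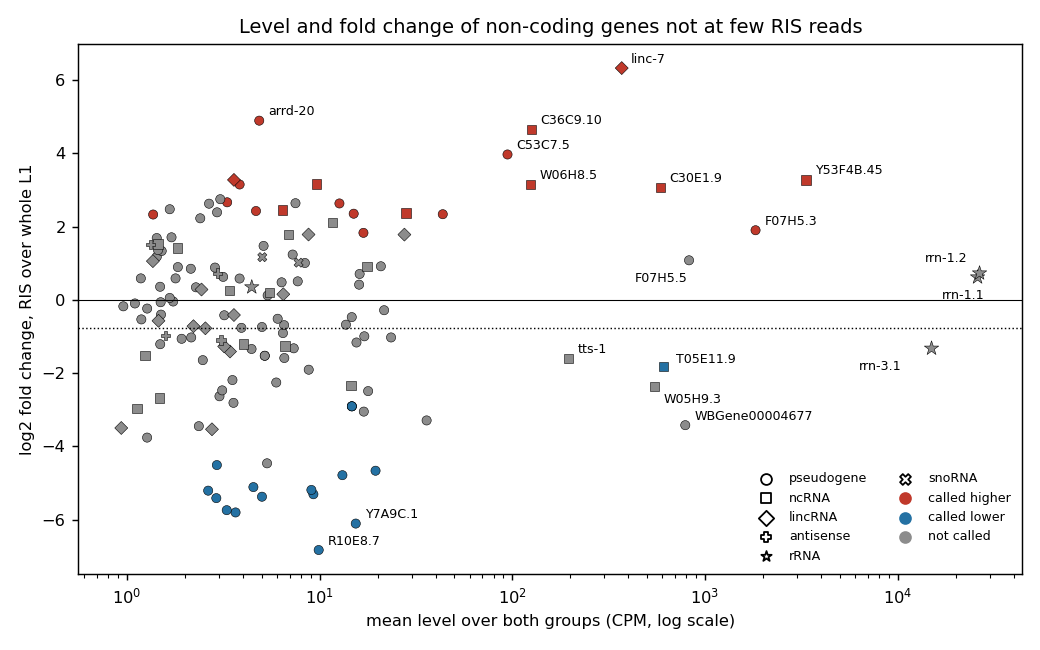
Mean level over both groups (CPM, log scale) against log2 fold change (RIS over whole L1) of the 147 non-coding genes not at few RIS reads. Marker shape gives the biotype, colour the call, and the dotted line the median of all genes. At the level of linc-7 (370 CPM) and above, the called genes are linc-7, C30E1.9, Y53F4B.45 and F07H5.3, which rose, and T05E11.9, which fell, while the large-subunit and small-subunit rRNA genes at the right were not called.

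Called rises among the pseudogenes numbered 11. The largest was arrd-20, named after the arrestin-domain family, with a log2 fold change of 4.89 (29.7-fold, 95% bounds 2.99 and 6.79, adjusted p = 0.00609) at 4.86 CPM per the authors' deposited table. C53C7.5 (X 13042182 to 13046220) had 94.5 CPM and rose by 3.97 (15.6-fold, 95% bounds 2.74 and 5.20, adjusted p = 0.00413) per the authors' deposited table. wago-2, named after the worm-specific Argonautes that bind small RNAs, had 3.15 (95% bounds 1.15 and 5.15, adjusted p = 0.0257) at 3.85 CPM per the authors' deposited table. The cytochrome P450 pseudogene cyp-31A1 rose by 2.35 (95% bounds 1.14 and 3.56, adjusted p = 0.0120) at 15 CPM per the authors' deposited table. Smaller rises were those of F56D5.4 (2.63), Y73B3B.5 (2.66), the F-box pseudogene fbxa-146 (2.42) and M116.2 (2.33), with adjusted p from 0.0138 for F56D5.4 to 0.0479 for Y73B3B.5 per the authors' deposited table. The calls on fbxa-146 and Y73B3B.5 ended when genes at few RIS reads were left out of the adjustment (adjusted p = 0.0556 and 0.0563).

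F07H5.3, F07H5.4 and F07H5.5 are 3 pseudogenes in a row on chromosome II and on the same strand, and 2 of them rose. F07H5.3 (II 8784535 to 8785513) was the most abundant pseudogene of the table, at 1830 CPM, with a log2 fold change of 1.90 (95% bounds 1.04 and 2.76, adjusted p = 0.00800) per the authors' deposited table. F07H5.4 had 43.6 CPM and rose by 2.34 (95% bounds 1.14 and 3.53, adjusted p = 0.0119) there. F07H5.5, at 827 CPM, had 1.08 (95% bounds −0.03 and 2.19, adjusted p = 0.116) per the authors' deposited table. F07H5.5 was called relative to the median of all genes (1.86, adjusted p = 0.0210). The next coding gene along, F07H5.6, had −0.38 (adjusted p = 0.722) per the authors' deposited table.

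Of the 48 pseudogenes that fell, 16 had more than few RIS reads, with log2 fold changes from −6.83 to −2.91. The largest fall was that of R10E8.7 (V 18231635 to 18237223), at 9.9 CPM, with −6.83 (95% bounds −9.80 and −3.86, adjusted p = 0.00728) per the authors' deposited table. Of its 2737 exonic bases, 1422 lie over exons of the coding gene R10E8.3 on the opposite strand. That gene had −2.80 (adjusted p = 0.178) per the authors' deposited table, and reads may be shared within the pair. Y7A9C.1 had 15.4 CPM and −6.11 (95% bounds −8.59 and −3.63, adjusted p = 0.00647) per the authors' deposited table. The collagen pseudogene col-66 had −5.19 (95% bounds −7.07 and −3.31, adjusted p = 0.00527), the nuclear receptor pseudogene nhr-220 had −5.41 (adjusted p = 0.00852) and the chitinase-like pseudogene chil-28 had −5.11 (adjusted p = 0.0164) per the authors' deposited table. K01A2.3 (−5.80), R12C12.8 (−5.74), Y41D4B.18 (−5.38), F46A8.1 (−5.31) and T07D3.6 (−5.21) fell as well per the authors' deposited table. The call on T07D3.6 ended relative to the median of all genes (adjusted p = 0.0566).

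The other 32 falls were at few RIS reads, and 8 of these pseudogenes had no RIS reads at all. Their mean levels ran from 0.740 to 8.80 CPM, so the whole larvae gave most or all of their reads. The 72 pseudogenes not called had log2 fold changes from −4.46 to 2.75, 31 above 0 and 41 below. Their adjusted p ran from 0.0549 to 0.982. At or above the median level of the table, 6 of 26 pseudogenes rose and 6 fell, against 5 and 42 of 105 below it. The background is 15.2% higher and 23.7% lower at or above that level and 4.49% and 29% below it, so the counts lie near it except for more rises at or above it and more falls below it, a difference that was not tested.

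Several pseudogenes are named after gene families, which allows them to be set beside the coding genes of the same name: 30 pseudogenes fall into 18 families. Over all genes tested, 9.84% were called higher and 26.4% lower. The F-box family fbxa, whose proteins are thought to mark others for degradation, has 7, of which 5 fell (fbxa-87, fbxa-93, fbxa-175, fbxa-180 and fbxa-187, all at few RIS reads) and fbxa-146 rose. Of its 85 coding members 41 fell and 0 rose, with a median of −3.68. The nuclear hormone receptor family nhr has 4 pseudogenes, of which nhr-220 and nhr-151 fell, beside 55 falls and 14 rises among 181 coding members. For collagens, col-66 fell, as did 70 of 105 coding members. In the cytochrome P450 family cyp, whose enzymes oxidize lipids and foreign compounds, cyp-31A1 rose and cyp-25A5 was listed at 0.85 (adjusted p = 0.389) per the authors' deposited table, while 40 of 62 coding members fell and 2 rose. The 2 coding rises were cyp-31A2 (4.94, adjusted p = 0.00564) and cyp-34A6 (2.34, adjusted p = 0.0153) per the authors' deposited table. The C-type lectin pseudogenes clec-14 and clec-16 were both listed at −1.53 (adjusted p = 0.390) per the authors' deposited table, beside 65 falls and 0 rises among 96 coding members. Among the arrestin-domain genes, arrd-20 rose with 5 of 16 coding members, and 4 fell. Whether a pseudogene differs from its family was not tested. Nor was it tested whether a pseudogene drew reads of a like-named coding gene, as cyp-31A1 might from cyp-31A2.

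**Figure D4:**
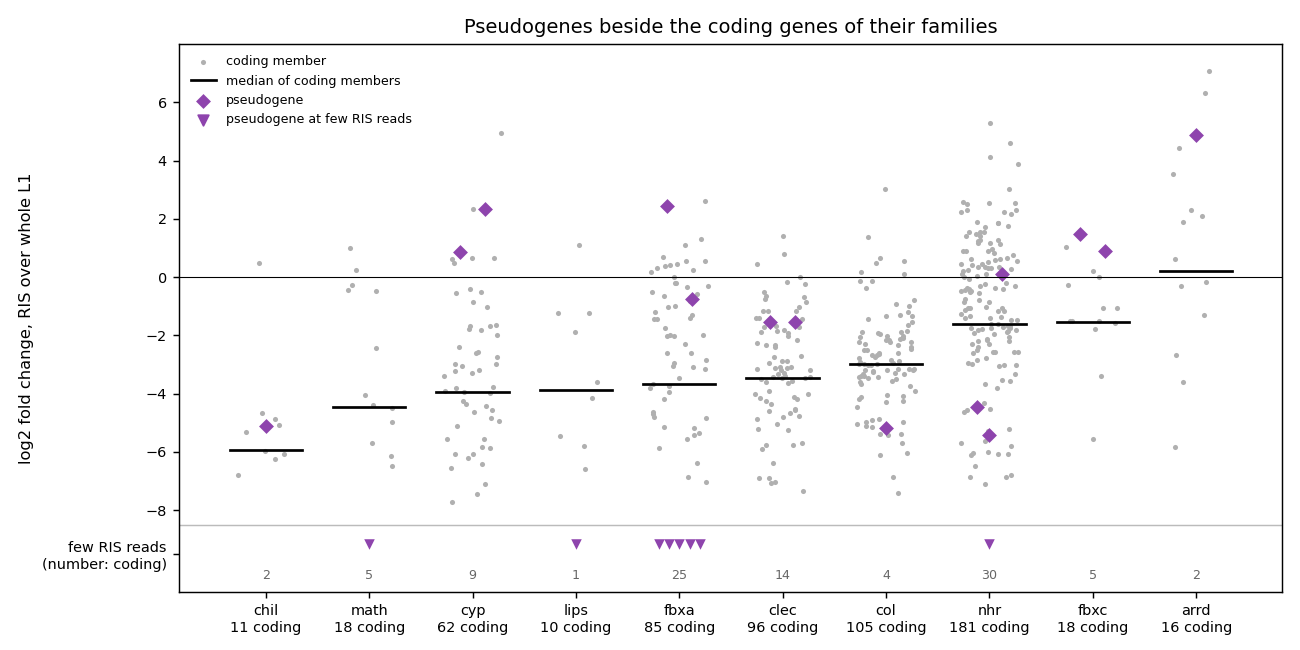
Log2 fold change (RIS over whole L1) of named pseudogenes (diamonds, or triangles in the lower band for those at few RIS reads) beside the coding genes of the same family (grey points), for families with at least 10 coding members. Bars are medians of the coding members, and the numbers in the lower band count coding members at few RIS reads. The pseudogenes cyp-31A1, fbxa-146 and arrd-20 lie above their families' medians, and col-66 lies below its own.

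Reads of overlapping genes can be shared, and the labels name no kit that marks the strand. In the Ensembl annotation, 25 of the 183 non-coding genes share exonic bases with a coding gene, and 9 more lie in a coding gene's body. Of the 25, 3 rose and 4 fell, beside 9.84% higher and 26.4% lower over all genes. In 13 pairs both genes are in the table and neither is at few RIS reads. Their log2 fold changes had a Pearson r of 0.58 and a Spearman rho of 0.53 across pairs, given as a description, since overlapping genes share reads. The 8 pairs on the same strand had a median absolute difference of 0.59, and the 5 on opposite strands one of 4.03.

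Of the called members, W06H8.5 and R166.6 lie wholly within the exons of a coding gene. For W06H8.5 this is W06H8.6 on the same strand, which had 3.26 (adjusted p = 0.0331) against 3.15 for W06H8.5 per the authors' deposited table. For R166.6 it is mnk-1, a kinase gene on the same strand, which had 2.0 (adjusted p = 0.0597) against 2.37 per the authors' deposited table. The levels within these pairs differed. W06H8.5 had 124 CPM and W06H8.6 had 6.995 CPM, while R166.6 had 28.1 CPM and mnk-1 had 113 CPM. How the reads of each pair were divided was not tested, so the rises cannot be assigned to the ncRNA genes alone. Y41D4B.18 shares only 13 bases with C34H4.1, and both fell, by 5.38 and 5.23 on the log2 scale per the authors' deposited table. In the other direction, F56D5.4 rose by 2.63 while F56D5.6, on the opposite strand and overlapping 15% of it, had −4.47 (adjusted p = 0.00597) per the authors' deposited table.

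**Figure D5:**
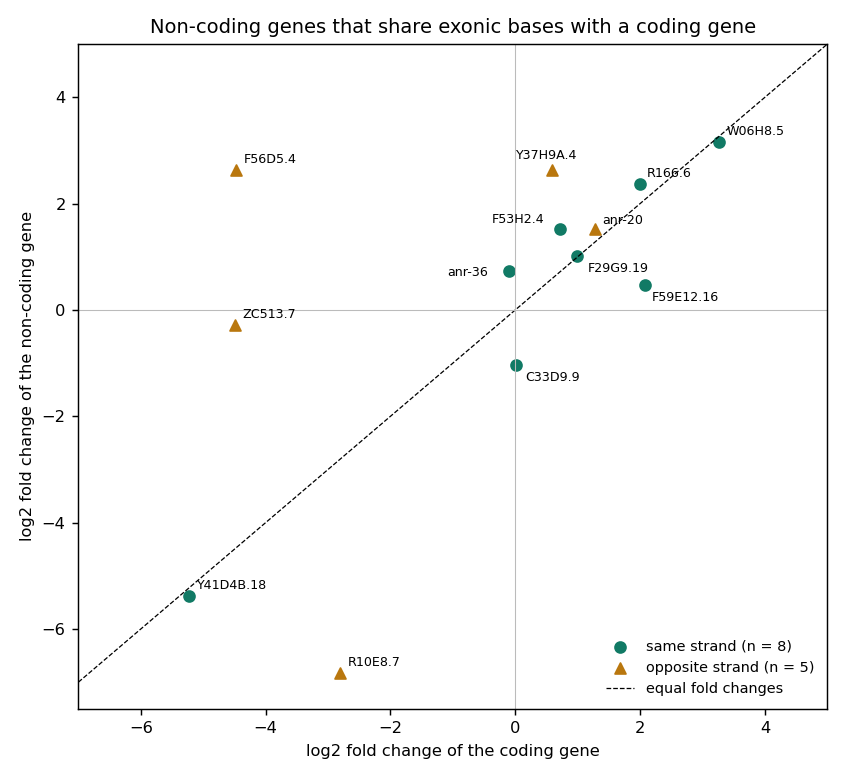
Log2 fold change (RIS over whole L1) of non-coding genes against that of the coding gene with which they share exonic bases, for the 13 pairs with neither gene at few RIS reads. Circles are the 8 pairs on the same strand, triangles the 5 on opposite strands, and the dashed line marks equal values. W06H8.5, F29G9.19 and Y41D4B.18 lie close to the line, and F56D5.4 and ZC513.7 lie far above it.

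Some neighbours had the same values and others did not. F45D11.2, F45D11.3 and F45D11.4, at II 1007792 to 1020682, carry identical values per the authors' deposited table (−2.91, 14.7 CPM, adjusted p = 0.0117), as do clec-14 and clec-16. Identical rows appear for 33 genes of the table in 14 sets, 5 of them non-coding, and repeated copies whose reads were divided or counted alike give no independent evidence. Counted once, the non-coding genes number 180, with 20 rises and 51 falls. The coding genes between these pseudogenes, F45D11.15 and F45D11.16, are identical as well and fell, by 1.98 on the log2 scale (adjusted p = 0.0184) per the authors' deposited table. Near arrd-20, which rose, the pseudogene T20D4.13 lies 3954 bases away and fell at few RIS reads (adjusted p = 0.00634 per the authors' deposited table), as did T20D4.9. K02E7.6 fell by 4.67 on the log2 scale (adjusted p = 0.0103) per the authors' deposited table, and K02E7.5 next to it had no RIS reads.

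By chromosome, the counts are set beside the shares called over all genes there. On X, 5 of 25 non-coding genes rose and 3 fell, with a median of 1.06, while of all genes on X 13.2% were called higher and 30.7% lower, with a median of −1.11. The 5 were linc-7, C36C9.10, C30E1.9, C53C7.5 and Y73B3B.5, and 14 of the 25 are ncRNA or lincRNA genes. On V, 4 of 48 rose and 18 fell, 16 of the falls being pseudogenes, near the shares of all genes there, 7.89% higher and 35.2% lower. On III 1 rose and 1 fell of 18 (all genes 10.4% and 18.3%), and on I 2 and 6 of 27 (all genes 10.1% and 18.3%). On II the counts were 5 and 14 of 39 (all genes 9.32% and 27.7%), and on IV 3 and 11 of 26 (all genes 8.82% and 25.5%). The biotypes are unevenly spread over the chromosomes, and the difference between chromosomes was not tested.

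Set against the annotation, the table holds few of the non-coding genes. It includes 131 pseudogenes beside 2128 annotated by Ensembl, 25 ncRNA genes beside 7764, 17 lincRNA genes beside 194, 4 rRNA genes beside 20, 4 antisense genes beside 100 and 2 snoRNA genes beside 346. MicroRNAs, piRNAs, spliced leader RNAs, the RNAs of RNase P and RNase MRP, and telomerase, Y and stem-bulge RNAs were not analysed here. Median levels per kilobase of exon were 2.68 CPM for pseudogenes, 4.88 CPM for lincRNA genes, 16.6 CPM for ncRNA genes, 28.1 CPM for snoRNA genes and 9541 CPM for rRNA genes.

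Coding genes that make or act on non-coding RNA are given beside the background of 9.84% higher and 26.4% lower over all genes. Among 7 microRNA processing genes 2 rose, ain-1 (1.63, 95% bounds 0.71 and 2.55, adjusted p = 0.0167) and ain-2 (1.55, 95% bounds 0.64 and 2.45, adjusted p = 0.0191) per the authors' deposited table, whose products join Argonaute in silencing microRNA targets. Of 9 nonsense-mediated decay genes, which clear transcripts with early stop codons as many pseudogene RNAs have, none was called by the authors' edgeR-format test and 2 had an unadjusted p below 0.05, smg-1 (1.28, adjusted p = 0.0605) and smg-4 (1.40, adjusted p = 0.0725) per the authors' deposited table. Of 11 measured genes of the RNA exosome, which degrades RNA from its end, exos-4.2 fell at few RIS reads (1.28 CPM, adjusted p = 0.00665) and exos-7 had 0.94 (adjusted p = 0.194) per the authors' deposited table. Neither RNA editing gene was called by that test, adr-1 (0.58, adjusted p = 0.407) and adr-2 (0.74, adjusted p = 0.339) per the authors' deposited table, and neither had an unadjusted p below 0.05. None of 5 snoRNA protein genes was called at either threshold, among them K01G5.5 (−0.73, adjusted p = 0.304) and Y48A6B.3 (−0.90, adjusted p = 0.414) per the authors' deposited table. Of 4 La and Ro protein genes none was called by the authors' edgeR-format test and 1 had an unadjusted p below 0.05, larp-5 (1.30, adjusted p = 0.0629), while rop-1, the gene of the Ro protein that binds misfolded and small RNAs, had −1.84 (adjusted p = 0.144) per the authors' deposited table.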

How the data were processed

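The values analysed are those of 1 table deposited by the authors, with 12072 genes and 12 columns; no column of values per sample was found. Per the file headers its columns are, for each gene, the log2 fold change, the mean log2 CPM, the F value (a score), the unadjusted p-value and the false discovery rate, in the format of edgeR's quasi-likelihood test. Aligner, counting tool, filters and genome build were not given in the sources used here, and the depth of each library, and so its precision, is unknown. Coordinates are the table's own; all 183 genes were found in Ensembl release 115 (WBcel235), 179 with the same start and end, and that annotation gave exons and overlaps.

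Mean CPM is the antilog of the deposited log2 CPM. The approximate SE is the size of the log2 fold change divided by the square root of its F. Denominator degrees of freedom recovered from F and p were 6.76 for 11902 genes and 5.76 for 170, which have no RIS reads; how many of the labelled libraries entered the authors' fit is not stated, and the loss of 1 is that of 2 libraries without reads. Genes whose log2 fold change plus log2 CPM lies within 4.8 of the median of those 170 are called genes at few RIS reads (946 in all, 938 of them called lower), and their medians and counts include fitted values. Calls against the median of all genes used this SE.

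The genes and lists were chosen with earlier results of these data known. Named were all genes of biotypes with 12 or fewer members, the 10 largest called rises and falls of each larger biotype (not at few RIS reads), the 5 most abundant of each, all members of the RNA lists and 2 members by adjusted p of each list of coding genes that act on RNA. Named outside this, after their values were seen, were genes at few RIS reads, family members, overlapping or neighbouring genes, Y17D7C.3, K02E7.6, F32A5.9, ZK384.7, lfor-1, tts-2, F19G12.10, C04C11.23, unc-54, glh-1 and twk-47. Scripts ran under Python 3.11.15 with pandas 2.3.3 and numpy 2.4.6; scipy 1.17.1 gave the distributions, and figures were drawn with matplotlib 3.10.9.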

Additional observations from a re-analysis of the deposited data

How the results depend on the processing

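Counts of non-coding genes depended on the threshold and the zero point. The share of all genes called is not given for an adjusted p below 0.01 or for redone adjustments. Those counts therefore stand without a background. With the authors' adjustment the background was 15.2% called higher and 23.7% called lower among genes at or above the median level. Among all genes not at few RIS reads it was 10.7% and 20.2%, though that filter uses the fold change and takes out almost only falls. At an adjusted p below 0.01, 7 non-coding genes were higher and 33 lower, among them 3 and 29 pseudogenes, 3 ncRNA genes higher and 1 lincRNA gene higher, and 17 of the 58 named genes lost their call. Restricted to genes at or above the median level, with the adjustment made over those genes alone, there were 12 higher and 8 lower, with 6 and 6 pseudogenes, 1 and 0 lincRNA genes, an ncRNA median of 1.64 and a median of 4.05 for the 2 lincRNA genes left. With the median of all genes as zero, 31 were higher, with 12 ncRNA and 4 lincRNA genes, and the lincRNA median became 0.21. There linc-61 (0.0007), linc-34 (0.0584), linc-46 (0.36) and linc-5 (0.21) turned from negative to positive, none of them called, linc-11 (2.56), linc-22 (2.56) and F07H5.5 (1.86) gained a call, and T05E11.9 and T07D3.6 lost theirs. Without genes at few RIS reads the falls were 17, with 16 pseudogenes, 1 ncRNA and 0 lincRNA genes, and the calls on fbxa-146 and Y73B3B.5 ended (adjusted p = 0.0556 and 0.0563). Without genes that overlap coding exons the ncRNA median turned from 0.25 to −0.50 over 22 genes, since 3 genes with positive values were removed. With biotypes of the Ensembl annotation, chosen after seeing the data, 4 lincRNA genes were higher. A fold change of at least 2 and a recomputed adjustment moved no count. Counting identical rows once, also chosen after seeing the data, moved no count by over 1.5 times.

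No paired analysis was possible because the table holds no values per library; for the same reason leaving out a library, DESeq2, other size factors and other count filters were not run. The depth behind each value is unknown, and intervals of the scarce genes that were not called are wide.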

Other observations

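Annotation has moved some genes between classes. Among genes that the authors' deposited table lists as coding, 23 are non-coding in the Ensembl annotation of WBcel235, 20 as pseudogenes and 3 as lincRNA genes. Of those 20, 10 fell, 6 of them at few RIS reads, and 0 rose, beside 26.4% lower and 9.84% higher over all genes. Of the 3 lincRNA genes, Y41C4A.17 on chromosome III rose by 3.84 on the log2 scale (95% bounds 2.16 and 5.52, adjusted p = 0.00739) at 17.5 CPM and H36L18.2 on X by 2.71 (bounds 1.06 and 4.35, adjusted p = 0.0217) at 43.7 CPM per the authors' deposited table. The third, H09G03.1, had −1.23 (adjusted p = 0.533) there. Among the 20, the collagen gene col-182 had −4.99 (adjusted p = 0.00957) at 16.4 CPM, and prg-2, a Piwi-type Argonaute gene close to prg-1, had 0.77 (adjusted p = 0.673) per the authors' deposited table. Conversely, 3 of the 183 genes described as non-coding have another biotype in that annotation, and 1 of them, F43D2.7, is coding there. These genes were named after their values were seen.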
